A study of Mus musculus with 10 samples.

Results

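Kallikreins and clade B serpins are a family of secreted serine proteases and a family of mostly intracellular protease inhibitors. All protein-coding genes whose symbol began with Klk or Serpinb and a digit were taken, by their Ensembl identifiers in the GENCODE M21 annotation of GRCm38. Membership was set by symbol, but the families were selected on levels and calls measured in these same libraries. The rule gave 52 of the 43432 genes in the count files, 26 kallikreins and 26 clade B serpins. Their levels were compared over 3 sorted populations, small intestinal (SI) epithelium (3 libraries), SI tuft cells (3) and thymic tuft cells (4).

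All mice were naive males of 12 weeks, C57BL6.Il25(Flare25/Flare25), so every group, the epithelium included, carried both copies of Flare25, a reporter allele of the cytokine gene Il25. Each library came from 1 mouse and from live, CD45-negative, EPCAM-positive cells. Tuft cells were gated Flare25-positive and SI epithelium Flare25-negative. A library held 52000 to 57000 SI epithelial cells, 35000 to 36000 SI tuft cells or 1350 to 1900 thymic tuft cells. SI cells were released with DTT and EDTA, and thymic cells with Liberase TM and a Percoll gradient. Organ, cell release and cell number therefore cannot be told apart in any thymic comparison, and no other thymic epithelium was analysed here. In bulk RNA, fewer cells of a type and less RNA per cell cannot be told apart either.

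Kallikreins are made as inactive precursors and cut each other and their substrates outside the cell. In skin, Klk5, Klk7 and Klk14 loosen the junctions between cornified cells, and Spink5 inhibits them. Klk1, tissue kallikrein, releases kinins from kininogens, and the Klk1b genes are a rodent expansion beside it. Clade B serpins trap a target protease by letting it cut their reactive loop, and several protect the cell that makes them from granule or lysosomal proteases. Medullary thymic epithelium is known for expressing genes of many peripheral tissues, keratinocyte genes among them.

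Libraries held 38659882 to 73574745 gene counts. A count of 3 in a library, used as the floor for an absent gene, corresponded to 0.0433 to 0.0817 CPM (counts scaled to a common library size, here with TMM factors). All 18 tuft cell markers were called higher in both tuft groups than in SI epithelium. Of all genes, 10.9% were called higher than in SI epithelium for the SI tuft group and 28.6% for the thymic group. Sorting used the reporter of Il25, so a higher call of Il25 itself was set by the gate and is no test. Between the tuft groups, 15 of the 18 markers were lower and 1 higher in thymic tuft cells (23.1% and 28.5% of all genes). Their sums were 1050 to 1502 CPM in SI epithelium and 44448.7 to 55874.5 CPM in SI tuft cells. In thymic tuft cells they summed to 8677 to 10261 CPM. Cornified and keratinocyte genes (20) summed to 58.6 to 66.4 CPM in SI epithelium, 25.4 to 26.5 CPM in SI tuft cells and 2406 to 3070 CPM in thymic tuft cells. Medullary thymic epithelium markers (12) summed to 1509 to 2025 CPM, 1579 to 1726 CPM and 5016 to 5961 CPM in the same order. Leukocyte markers (25) summed to 39.4 to 49.6 CPM, 218 to 253 CPM and 373 to 437 CPM, with Elane and Klrb1c at 0 in thymic libraries. Stromal, salivary and pancreatic markers (19) summed to 10.7 to 12.5 CPM, 10.3 to 14.1 CPM and 32.6 to 103 CPM, with Amy2a5, Cela2a and Pnliprp1 at 0 in thymic libraries. Each of the last 4 lists stood higher in thymic tuft libraries than in SI libraries, as most members did, and its part in the members' levels was not tested.

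SI epithelium libraries 1, 2 and 3 held counts of genes abundant in thymic libraries 3, 2 and 1, at 0.487%, 0.540% and 0.449% of the thymic counts. Each fit started from 271 genes, and genes far from it were dropped, which left 240, 238 and 221. No other pairing of these libraries exceeded 0.0611%. In the other direction, thymic libraries 1, 2 and 3 held 0.860%, 0.959% and 0.918% of the SI epithelium counts of 11 genes. Thymic library 4 had no partner, so no share was estimated for it. The 11 genes were also chosen to be nearly absent from library 4, so they cannot show whether it held such counts. Member levels in SI epithelium are as deposited unless the partner share is said to be subtracted.

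The kallikreins lie in 1 cluster on the + strand of chromosome 7, from 43690418 to 44229618. The serpins lie in 2 clusters, 11 genes on chromosome 1 (106861173 to 107610484) and 15 on chromosome 13 (32842092 to 34002794). Promoters differed between the clusters in base composition and in short motifs. The 200 bases before the start site are shown for 3 chromosome 1 serpins that were high in thymic tuft cells and, for contrast, for Klk7 and Klk1, the kallikreins with the highest mean level per kilobase in thymic tuft cells (RefSeq, GRCm38.p6). Capitals mark TATAAA, the core of a TATA box, or TGANTCA, with any base at N. This pattern is wider than the AP-1 motif, which has C or G at N, as only the Serpinb8 match does.
Serpinb2, chr1:107511223-107511422, + strand: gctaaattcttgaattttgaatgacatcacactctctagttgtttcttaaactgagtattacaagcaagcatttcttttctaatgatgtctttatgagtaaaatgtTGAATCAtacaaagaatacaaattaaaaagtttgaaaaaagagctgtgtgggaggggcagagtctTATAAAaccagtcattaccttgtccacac
Serpinb12, chr1:106934249-106934448, + strand: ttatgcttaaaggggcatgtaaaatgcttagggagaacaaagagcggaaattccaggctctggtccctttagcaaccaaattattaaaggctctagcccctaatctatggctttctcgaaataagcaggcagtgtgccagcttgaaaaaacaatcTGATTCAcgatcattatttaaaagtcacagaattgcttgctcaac
Serpinb8, chr1:107589806-107590005, + strand: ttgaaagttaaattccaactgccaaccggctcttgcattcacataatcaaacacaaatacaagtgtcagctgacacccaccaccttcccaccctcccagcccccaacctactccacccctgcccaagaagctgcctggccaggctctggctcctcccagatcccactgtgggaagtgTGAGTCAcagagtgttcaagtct
Klk7, chr7:43811094-43811293, + strand: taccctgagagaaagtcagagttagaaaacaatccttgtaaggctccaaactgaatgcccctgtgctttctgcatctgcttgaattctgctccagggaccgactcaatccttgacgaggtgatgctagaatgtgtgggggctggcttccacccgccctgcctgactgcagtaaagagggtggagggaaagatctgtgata
Klk1, chr7:44225160-44225359, + strand: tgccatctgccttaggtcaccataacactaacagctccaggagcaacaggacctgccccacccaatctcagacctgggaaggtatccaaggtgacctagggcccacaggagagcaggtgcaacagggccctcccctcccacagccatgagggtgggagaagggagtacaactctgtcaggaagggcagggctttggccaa

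In Serpinb2 the TATAAA began 29 bases and the TGANTCA match 94 bases before the start. The TGANTCA match began 45 bases before the start in Serpinb12 and 23 bases before it in Serpinb8. Both strands were searched over windows of 300 bases, 250 before to 50 after the start. TATAAA was present in 7 of 10 chromosome 1 serpin promoters (70.0%), 2 of 14 chromosome 13 serpin promoters (14.29%), 1 of 26 kallikrein promoters (3.85%) and 13.62% of 32817 RefSeq promoters. TGANTCA was present in 6 of 10 chromosome 1 serpin promoters (60.0%), in 0 of the 14 and 0 of the 26, and in 7.81% of all. The octamer ATGCAAAT was in 2 of the 10, 0 of the 14, 0 of the 26 and 1.74% of all. The median CpG count per window was 0.5 for chromosome 1 serpins, 3 for chromosome 13 serpins, 2 for kallikreins and 7 for all promoters. These matches describe the windows only. Serpinb1a and Serpinb13 had no RefSeq promoter entry.

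Both families were spread widely in thymic tuft cells and were carried by a few genes in the intestine. A mean of at least 1 CPM was reached by 35 members in thymic tuft cells (21 kallikreins and 14 serpins), 4 in SI tuft cells and 7 in SI epithelium. In SI tuft cells 32 members, 15 kallikreins and 17 serpins, had 0 counts over all 3 libraries. More than 3 counts were found for 23 to 25 of 26 kallikreins in each thymic library, 13 to 15 in each SI epithelium library and 1 to 6 in each SI tuft library. For serpins these ranges were 19 to 20, 10 to 14 and 5 to 7 of 26. With the share described above subtracted, SI epithelium libraries 1, 2 and 3 held 9, 6 and 11 kallikreins and 10, 9 and 9 serpins with more than 3 counts.

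The members were proposed with results of these data known, so their test results describe them and are read against the share of all 19281 tested genes. The filter on low counts passed 42 members, and a member that passed through its thymic counts alone had to differ. In thymic against SI tuft cells, 20 kallikreins and 15 serpins were called higher (FDR, the adjusted p of edgeR's quasi-likelihood test, below 0.05), where 28.5% of all genes were. In the same comparison 0 kallikreins and 1 serpin, Serpinb1a, were called lower, against 23.1% of all genes. In thymic tuft cells against SI epithelium, 19 kallikreins and 14 serpins were called higher (28.6% of all genes), and Klk1 and Serpinb1a lower (22.3% of all genes). In SI tuft cells against SI epithelium, 0 members were called higher (10.9% of all genes) and 8 kallikreins and 6 serpins lower (11.4% of all genes). These lower counts were 1 and 3 after subtraction of the share described above, where 9.45% of all genes were lower. They were 7 and 3 with the replicate number as a block, where 1565 of all genes were lower, beside 2199 without the block. With only the SI groups fitted, the filter passed 3 kallikreins and 8 serpins, of which 2 and 5 were lower. In that fit 3513 of all genes were lower, over a different set of tested genes. A fit of the SI groups alone that kept the genes tested over all 10 libraries, added once the data had been seen, gave 5 kallikreins and 4 serpins lower. Lower calls over all genes were not counted for this added fit. Libraries that did not overlap placed 19 kallikreins and 15 serpins higher in thymic than in SI tuft cells (26.3% of all genes) and 1 serpin lower (24.9%). In thymic tuft cells against SI epithelium such libraries placed 18 kallikreins and 14 serpins higher (28.1% of all genes) and 1 of each family lower (27.4%). In the comparison of SI groups they placed 0 members higher (22.8% of all genes) and 14 kallikreins and 8 serpins lower (28.4%). Klk1b24 in the first of these comparisons and Serpinb13 in the last were counted though not tested, while the percentages cover tested genes. Klk11 was placed lower on 1, 1 and 2 SI epithelium counts, all within the floor of 3. Klk6, Klk5, Klk1b8, Klk1b11, Klk1b16, Klk1b27, Serpinb7 and Serpinb13 were also placed lower with an SI epithelium library within that floor. With the share subtracted, only Klk1, Klk1b1 and Klk1b5 of the 14 kallikreins placed lower in SI tuft cells still did not overlap. The other kallikreins of the 14 overlapped between the SI groups, as did Serpinb2 and Serpinb12. The other serpins placed lower there, Serpinb5 among them, still did not. Such placements were not counted over all genes after subtraction. The 2 thymic comparisons share the thymic libraries, and the 2 tuft comparisons share the SI tuft libraries.

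Klk1, tissue kallikrein (chr7:44225360-44229618), was the kallikrein of the intestine. It stood at 454, 420 and 422 CPM in SI epithelium, at 43.9, 28.5 and 24.6 CPM in SI tuft cells, and at 25.1, 53.4, 35.6 and 203 CPM in thymic tuft cells. All SI epithelium libraries lay above all others, and thymic library 4 lay apart from the other thymic libraries. Against SI epithelium, Klk1 was lower in SI tuft cells by a log2 fold change of -3.74 (SE 0.67, FDR 0.00164). In thymic tuft cells it was lower than in SI epithelium by a log2 fold change of -2.45 (SE 0.57, FDR 0.00371). Between thymic and SI tuft cells the groups overlapped and the log2 difference was 1.29 (SE 0.58, FDR 0.0830), or 0.24 (FDR 0.476) without thymic library 4. It was called in this comparison without thymic library 1 (1.61, FDR 0.0269), without thymic library 3 (1.55, FDR 0.0461) and with DESeq2 size factors (1.56, FDR 0.0471). Per kilobase of exon, Klk1 made up 99.0% ± 0.16 of the summed kallikreins in SI epithelium (SD, n = 3), 95.7% ± 6.58 in SI tuft cells (n = 3) and 23.8% ± 14.9 in thymic tuft cells (n = 4). Intestinal epithelium markers (21) summed to 115010 to 127068 CPM in SI epithelium and 17818 to 20385 CPM in SI tuft cells. In thymic tuft cells they summed to 1968 to 3223 CPM. The part of other intestinal cells in the Klk1 level of SI tuft libraries was not tested.

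**Figure D1:**
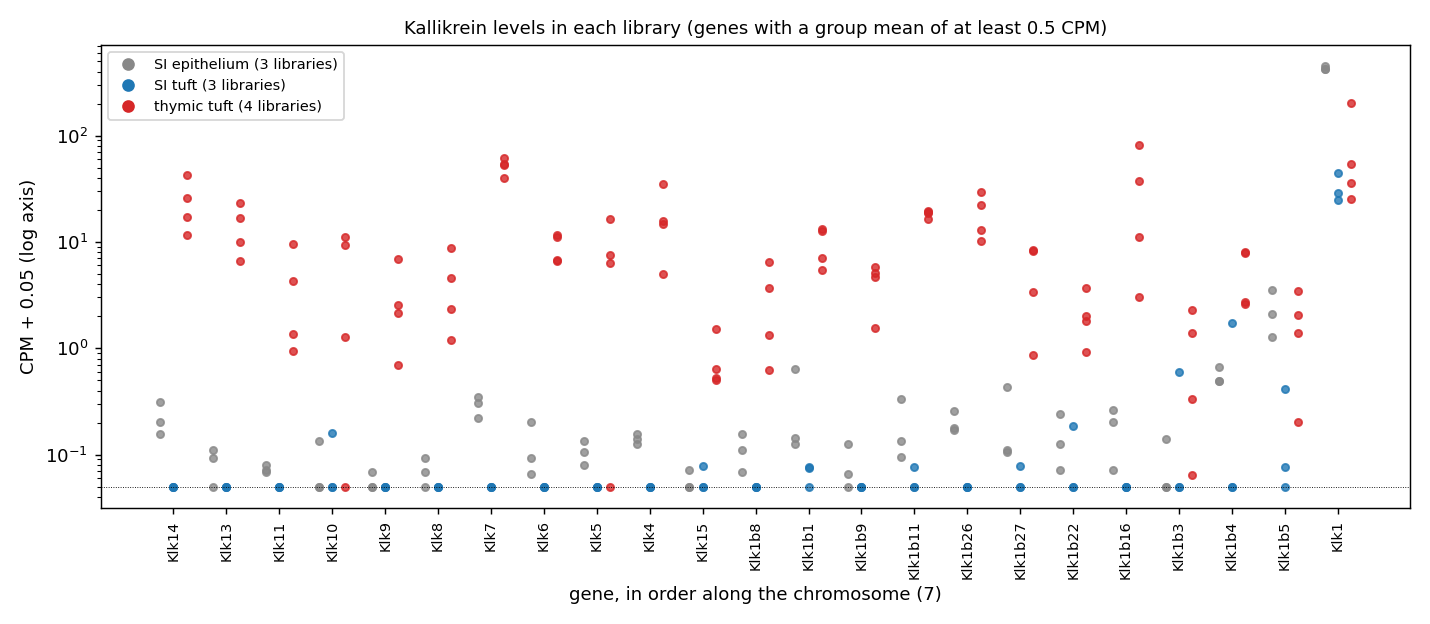
Kallikrein levels by library, in CPM with an offset of 0.05 on a log axis, for genes with a group mean of at least 0.5 CPM in order along chromosome 7. Each point is 1 library, grey for SI epithelium, blue for SI tuft and red for thymic tuft cells, and the dotted line marks 0 CPM. Red points stand above the others for most genes, and Klk1 at the right has its 3 grey points, at 420 to 454 CPM, above all others.

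The kallikreins of the skin barrier were found in thymic tuft cells. Klk7, a chymotrypsin-like enzyme of the stratum corneum (chr7:43811294-43816359), stood at 52.5, 53.6, 61.9 and 40.1 CPM in thymic tuft cells, 0 in all SI tuft libraries and 0.301, 0.170 and 0.257 CPM in SI epithelium. The highest thymic library held 1.54 times the lowest, and all 4 lay far above the SI libraries. Klk7 was at least 668-fold higher in thymic than in SI tuft cells, with SI tuft libraries set to the floor of 3 counts each (FDR 6.04e-08). Klk14, a trypsin-like enzyme that acts in the same layer (chr7:43690418-43695536), stood at 11.7, 17.0, 26.1 and 42.0 CPM in thymic tuft cells and at 0 in all SI tuft libraries. It was at least 311-fold higher in thymic tuft cells by the same floor (FDR 3.89e-06), and part of its exons overlaps 2310002F09Rik on the opposite strand, which these unstranded libraries cannot separate. Klk5, which activates other skin kallikreins, varied more. It stood at 7.52, 16.5, 6.29 and 0 CPM in the thymic libraries and was 0 in SI tuft cells, so the groups overlapped, and its FDR was 0.00390. Without thymic library 1, 2 or 3, Klk5 did not pass the filter on low counts and was not tested.

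The other genes of the Klk4 to Klk15 block stood at 0 or near it in the intestine. Klk4, the protease of maturing tooth enamel, stood at 14.7, 35.2, 15.6 and 4.98 CPM in thymic libraries and was at least 226-fold higher than in SI tuft cells (FDR 1.51e-05). Klk13 stood at 9.95, 23.0, 6.62 and 16.8 CPM there and was at least 181-fold higher (FDR 2.98e-05). Klk9 stood at 2.48, 0.641, 2.10 and 6.92 CPM and was at least 38.9-fold higher (FDR 0.00102). Each of these 3 genes had 0 counts in every SI tuft library. Klk10 stood at 0, 11.1, 1.21 and 9.20 CPM in the thymic libraries, so 1 thymic library without counts overlapped the SI libraries. Its FDR was 0.0199, and it was 0.0719 without SI tuft library 2 and 0.0699 without SI tuft library 4. Without thymic library 2, 3 or 4, Klk10 did not pass the filter. Klk6, a trypsin-like enzyme of brain and skin, had thymic values of 6.50 to 11.5 CPM, and Klk8, neuropsin, 1.13 to 8.78 CPM. Klk11 had 0.893 to 9.49 CPM and Klk15 a mean of 0.744 CPM, while Klk12 was found in thymic library 4 alone, at 0.779 CPM, and was not tested. Summed from Klk4 to Klk15, the level per kilobase was 0.503 ± 0.0997 CPM per kb in SI epithelium, 0.0360 ± 0.0623 in SI tuft cells and 90.6 ± 16.6 in thymic tuft cells (SD, n = 3, 3 and 4). With the partner share subtracted it was 0.114 ± 0.0415, 0.0354 ± 0.0614 and 92.9 ± 16.9 CPM per kb in the same order.

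Klk1b genes, neighbours of Klk1, split between steady and scattered patterns. Klk1b11 stood at 16.3, 18.7, 18.9 and 19.4 CPM in thymic libraries and had 1 count over all SI tuft libraries. Its ratio of thymic to SI tuft level was 2119, with an exact counting interval of 380 to 83705 (95%, counting error only), and its FDR was 2.53e-06. Klk1b16 (chr7:44136767-44141610) stood at 37.0, 3.0, 11.1 and 80.6 CPM in thymic libraries and at 0 in all SI tuft libraries. It was high in thymic libraries 1 and 4 and low in library 2, and every thymic library lay above every SI library. It was at least 423-fold higher in thymic than in SI tuft cells (FDR 0.000255). Klk1b26 had 10.1 to 29.7 CPM and Klk1b1 5.38 to 13.2 CPM in thymic libraries.

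Klk1b5 was the Klk1b gene with the highest mean level in SI epithelium. It stood at 1.22, 2.06 and 3.45 CPM in SI epithelium, 0.364, 0 and 0.0264 CPM in SI tuft cells and 3.39, 0.151, 1.33 and 2.00 CPM in thymic tuft cells. Thymic and SI tuft values overlapped, and the log2 difference of 3.68 (SE 1.40, FDR 0.0437) missed the threshold in 11 of 17 alternatives, as with the replicate number as a block (FDR 0.132). Thymic tuft cells and SI epithelium also overlapped (log2 difference -0.39, SE 1.18, FDR 0.805). Klk1b3 and Klk1b4, which encode chains of the nerve growth factor complex of the salivary gland, had thymic values of 0.0144 to 2.22 CPM and 2.58 to 7.95 CPM. SI tuft library 3 alone held counts of both, at 0.544 and 1.69 CPM. Klk1b21 also stood highest in that library, at 0.572 CPM, and these 3 genes were not called between thymic and SI tuft cells. Without SI tuft library 3, Klk1b4 and Klk1b21 were called higher in thymic tuft cells (FDR 0.000373 and 0.0390). Klk1b8, Klk1b9, Klk1b22 and Klk1b27 had thymic means of 2.97, 4.26, 2.05 and 5.17 CPM. Klk1b24 stayed at or below 0.419 CPM in every library and was not tested.

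Reads of near-identical genes may be divided between them. Of the 50-base windows in Klk1 transcripts, 23.97% occur in another gene, most often in Klk1b5, and for Klk1b genes this share was 10.09% to 33.9%. Klk1b levels are therefore uncertain, whereas Klk7, Klk13, Klk4, Klk5 and Klk6 share no such window.

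Serpinb2, plasminogen activator inhibitor type 2, which blocks urokinase (chr1:107511423-107535478), stood at 152, 172, 179 and 172 CPM in thymic tuft cells. It had 0 counts in all 3 SI tuft libraries and 1.05, 1.36 and 0.787 CPM in SI epithelium. The thymic values were narrowly spread and Serpinb2 was the most abundant serpin per kilobase there, at 71.8 ± 4.86 CPM per kb (SD, n = 4). It was at least 2166-fold higher in thymic than in SI tuft cells by the 3-count floor per library (FDR 6.47e-09). Serpinb10, whose exons overlap it, stood at or below 0.152 CPM in every library.

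**Figure D2:**
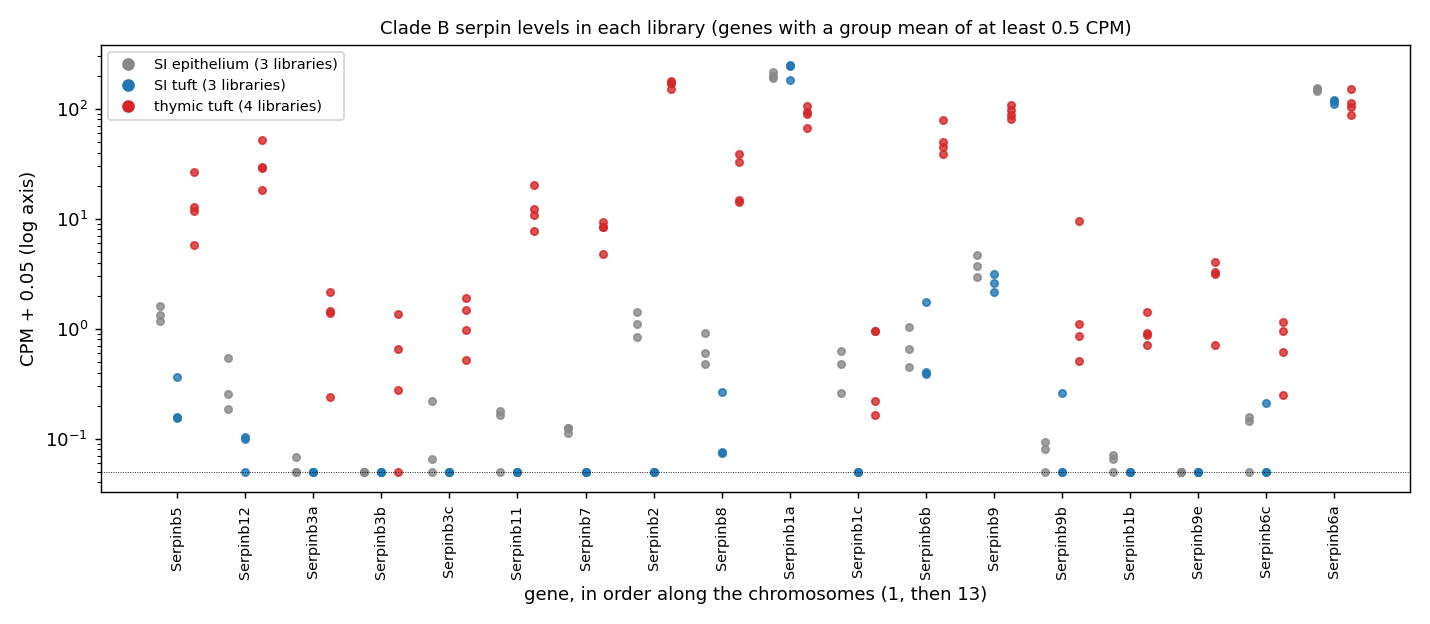
Clade B serpin levels by library, in CPM with an offset of 0.05 on a log axis, for genes with a group mean of at least 0.5 CPM, those of chromosome 1 first. Points and colours are as in the plot of kallikreins. Serpinb1a and Serpinb6a have all 10 points between 66.2 and 250 CPM, and Serpinb2 has its 4 red points at 152 to 179 CPM.

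Serpinb9, the inhibitor of granzyme B (chr13:33003250-33017957), was present at low level in the intestine. It stood at 4.59, 3.69 and 2.89 CPM in SI epithelium, 3.09, 2.12 and 2.56 CPM in SI tuft cells and 81.2, 87.2, 107 and 97.0 CPM in thymic tuft cells. The SI groups overlapped and every thymic library lay above them. The log2 fold change from SI tuft to thymic tuft cells was 5.17 (SE 0.27, FDR 3.62e-08). Serpinb6b (chr13:32965209-32979067) stood at 79.7, 44.7, 49.8 and 38.5 CPM in thymic tuft cells, 0.340, 0.354 and 1.72 CPM in SI tuft cells and 0.998, 0.403 and 0.606 CPM in SI epithelium. With the partner share subtracted, the SI epithelium values were 0.681, 0.127 and 0.270 CPM. Again only thymic libraries were high, with a log2 fold change from SI tuft cells of 6.05 (SE 0.67, FDR 1.29e-05).

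Serpinb1a and Serpinb6a, inhibitors of neutrophil granule proteases, were the serpins of the intestine. Serpinb1a (chr13:32842092-32851185) stood at 215, 200 and 189 CPM in SI epithelium, 250, 184 and 247 CPM in SI tuft cells and 66.2, 106, 94.1 and 89.5 CPM in thymic tuft cells. All SI libraries lay above all thymic libraries, and the SI groups overlapped. The log2 fold change of thymic against SI tuft cells was -1.35 (SE 0.18, FDR 5.53e-05) and against SI epithelium -1.18 (SE 0.18, FDR 0.000164). Serpinb6a (chr13:33917918-34002794) stood at 154, 150 and 146 CPM, 119, 110 and 120 CPM, and 87.4, 152, 113 and 105 CPM in the same order. It was not called in any comparison, with log2 differences of -0.37 for SI tuft against epithelium (FDR 0.193), -0.03 for thymic against SI tuft (FDR 0.916) and -0.39 for thymic tuft against epithelium (FDR 0.0808). It was called between the SI groups with only these fitted (-0.36, FDR 0.0277), and between thymic tuft cells and epithelium without thymic library 2 (-0.55, FDR 0.00791). The sign of its thymic to SI tuft difference turned under 9 of 18 alternatives, and 25.14% of its 50-base windows occur in other genes, chiefly Nqo2. These 2 serpins made up 97.5% ± 0.21 of summed serpins per kilobase in SI epithelium (SD, n = 3), 99.0% ± 0.17 in SI tuft cells (n = 3) and 26.9% ± 3.77 in thymic tuft cells (n = 4).

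The other chromosome 1 serpins were, like Serpinb2, mainly thymic. Serpinb12, known in stratified epithelium, stood at 28.9, 51.5, 29.2 and 18.2 CPM in thymic libraries and had 4 counts over all SI tuft libraries. Serpinb8, an inhibitor of furin, stood at 32.9, 38.8, 14.7 and 14.1 CPM in thymic libraries and at or below 0.218 CPM in SI tuft cells. For these genes the FDR of thymic against SI tuft cells was 1.34e-06 and 8.40e-06. Serpinb5, maspin, a serpin that does not inhibit proteases, had values in every group. It stood at 1.13, 1.27 and 1.57 CPM in SI epithelium, 0.316, 0.109 and 0.106 CPM in SI tuft cells and 5.77, 11.8, 12.7 and 26.8 CPM in thymic tuft cells. The 3 groups did not overlap, and the log2 fold changes were -2.88 for SI tuft against epithelium (SE 0.68, FDR 0.00918) and 6.30 for thymic against SI tuft cells (SE 0.76, FDR 2.62e-05). Serpinb11 stood at 7.68, 12.2, 20.0 and 10.8 CPM in thymic libraries (at least 163-fold higher than in SI tuft cells, FDR 7.73e-05). Serpinb7 stood at 9.37, 4.77, 8.34 and 8.29 CPM (at least 98.7-fold higher, FDR 1.13e-05). Both were at 0 in all SI tuft libraries. Serpinb3a, Serpinb3b and Serpinb3c had thymic means of 1.27, 0.533 and 1.16 CPM, Serpinb3d was found in thymic library 2 alone at 1.32 CPM, and Serpinb13 stayed at or below 0.0941 CPM. Serpinb3d and Serpinb13 were not tested. Serpinb3b, at 0 in thymic library 3, had an FDR of 0.0334 against SI tuft cells. The FDR was 0.0898, 0.0863 and 0.0866 without SI tuft library 2, 3 and 4. Without thymic library 1, 2 or 4, Serpinb3b did not pass the filter on low counts. Part of its exons overlaps Serpinb3c on the same strand.

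**Figure D3:**
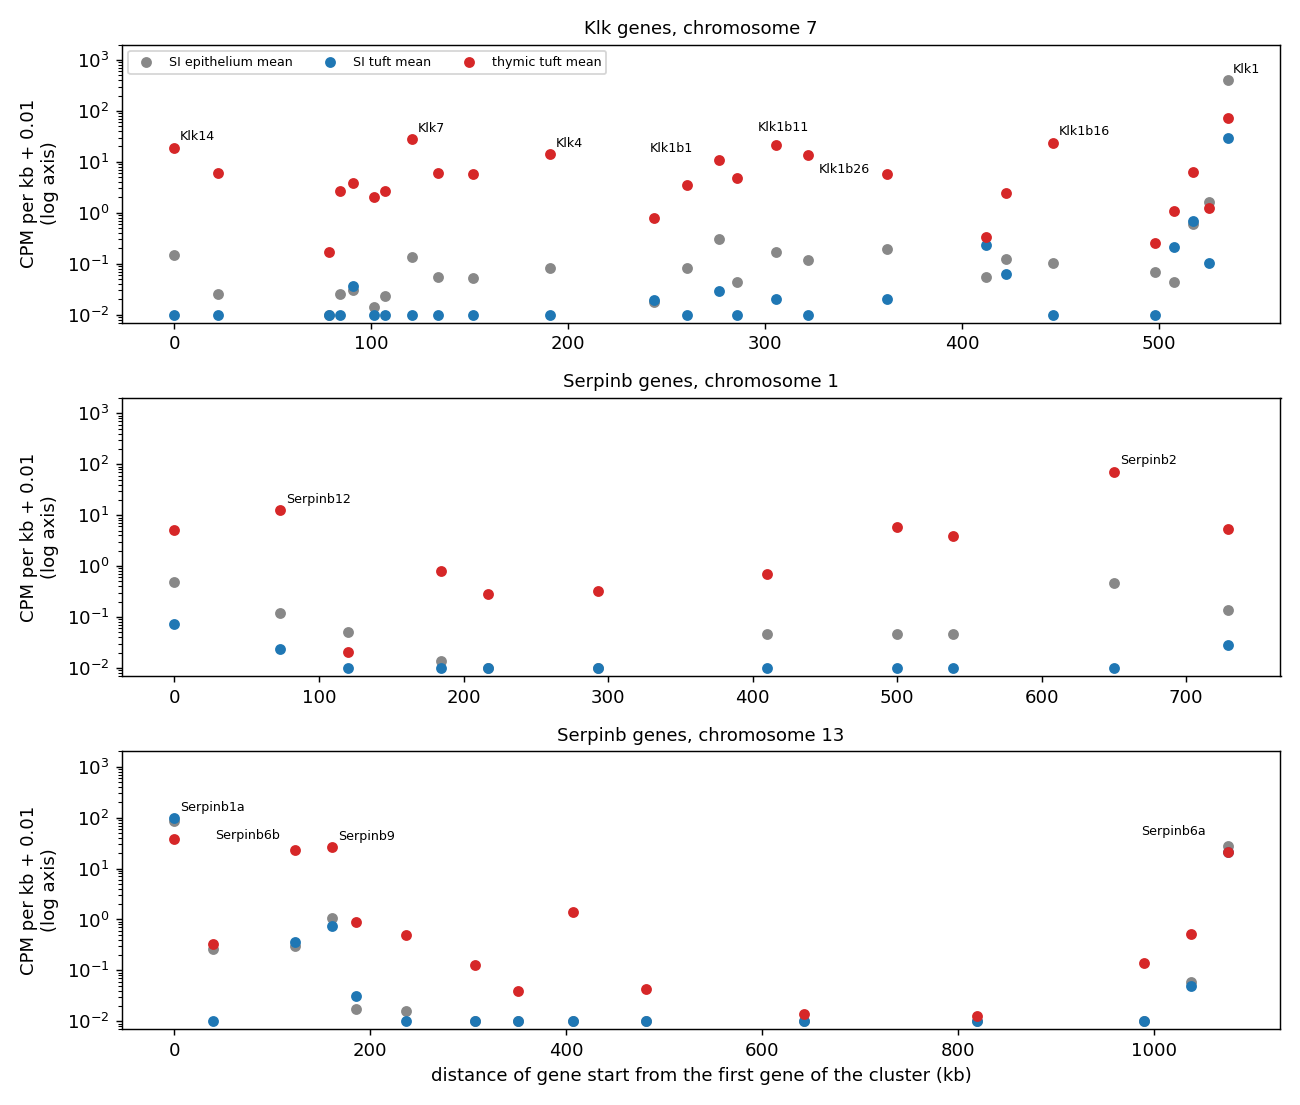
Mean level of each member along the 3 gene clusters, in CPM per kilobase of exon with an offset of 0.01 on a log axis, against the distance of its start from the first gene of the cluster in kb. Grey, blue and red points are the means of SI epithelium (n = 3), SI tuft (n = 3) and thymic tuft libraries (n = 4), and genes reaching 10 CPM per kb are named. Thymic means lie above the intestinal ones over most of each cluster, with Klk1, Serpinb1a and Serpinb6a as the named exceptions.

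On chromosome 13 the tandem copies beside Serpinb9 and Serpinb6a were low. Serpinb9e stood at 3.96, 3.24, 3.08 and 0.665 CPM in thymic libraries and at 0 in all 6 SI libraries, at least 35.1-fold higher than in SI tuft cells (FDR 0.00140), and 28.44% of its windows occur in other genes. Serpinb9b stood at 9.52 CPM in thymic library 1 and at 0.462 to 1.05 CPM in the other thymic libraries. Its FDR against SI tuft cells was 0.0246, and it was 0.0842 without thymic library 1, 0.0775 without SI tuft library 2 and 0.0777 without SI tuft library 3. Serpinb1b and Serpinb6c had thymic means of 0.930 and 0.694 CPM. Serpinb1c stood at 0.584, 0.212 and 0.424 CPM in SI epithelium, 0 in SI tuft cells and 0.115 to 0.905 CPM in thymic tuft cells. Serpinb9c, Serpinb9d, Serpinb9f and Serpinb6e had means of at most 0.238 CPM in every group, and Serpinb9g and Serpinb6d had at most 3 counts in any library. These 6 were not tested.

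Summed per kilobase, the 2 serpin clusters differed across the groups. Chromosome 1 serpins summed to 1.33 ± 0.136 CPM per kb in SI epithelium, 0.0967 ± 0.0485 in SI tuft cells and 107 ± 9.19 in thymic tuft cells (SD, n = 3, 3 and 4). With the partner share subtracted the SI epithelium sum was 0.754 ± 0.0970 CPM per kb. Chromosome 13 serpins summed to 117 ± 6.90, 121 ± 17.2 and 114 ± 8.01 CPM per kb in the same order, differences smaller than the spread within the SI tuft libraries.

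The balance of proteases to inhibitors, the log2 ratio of summed kallikreins to summed serpins in CPM per kb, had a different sign in the 2 SI groups. It was 1.76, 1.74 and 1.83 in SI epithelium, -1.68, -1.76 and -2.52 in SI tuft cells and -0.19, 0.04, -0.20 and 0.98 in thymic tuft cells. The groups did not overlap, and thymic libraries lay between the SI groups. The means were 1.78 ± 0.05, -1.98 ± 0.46 and 0.16 ± 0.56 (SD), with no test. Summed kallikreins stood at 405 ± 17.3, 31.3 ± 9.17 and 259 ± 105 CPM per kb, and summed serpins at 118 ± 6.93, 121 ± 17.2 and 221 ± 16.5. Without Klk1 the kallikreins summed to 3.91 ± 0.482, 1.32 ± 1.96 and 186 ± 30.4 CPM per kb. Without Serpinb1a and Serpinb6a the serpins summed to 3.0 ± 0.420, 1.25 ± 0.313 and 161 ± 7.51. With plain CPM in place of CPM per kb the means were 0.28, -3.41 and -1.0. The thymic mean was -0.12 without thymic library 4, so its sign depended on that library and on the scale. These are RNA levels, and enzyme activity was not measured.

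**Figure D4:**
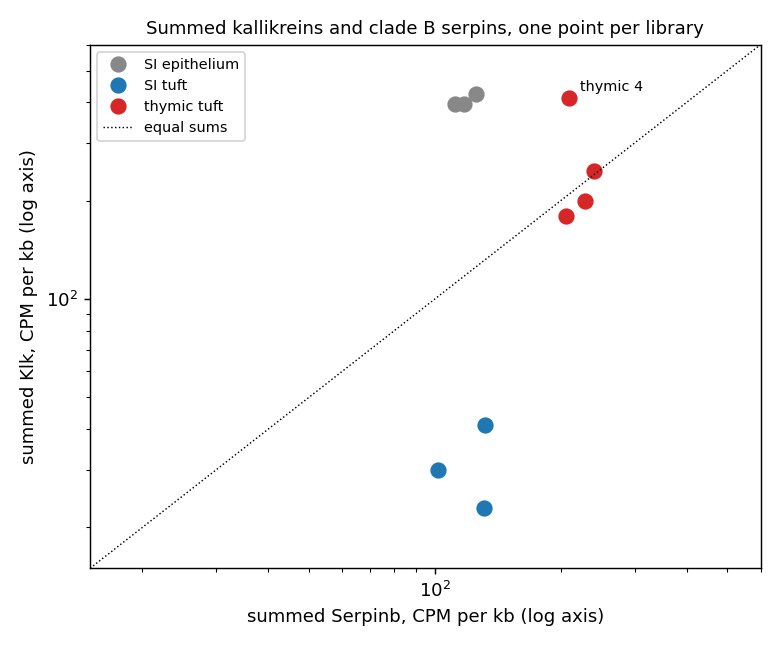
Summed kallikreins against summed clade B serpins in each library, both in CPM per kb on log axes, with the dotted line at equal sums. The 3 SI epithelium libraries lie above the line and the 3 SI tuft libraries below it, at about the same serpin sum, and thymic library 4, at 411 CPM per kb of kallikreins, lies above the other thymic libraries.

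The 4 thymic libraries spread more widely for the kallikreins than for the serpins. Over members with a thymic mean of at least 1 CPM, the median coefficient of variation was 72.0% for 21 kallikreins and 42.6% for 14 serpins, beside 38.1% for 15351 tested genes, whose levels were not matched to the members'. The kallikreins did not share 1 high library, as 8 were highest in thymic library 2, 8 in library 4, 4 in library 1 and 1 in library 3.

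Several low levels in SI epithelium were close to the share of the thymic partner library. Serpinb2 had 56, 64 and 52 counts in SI epithelium libraries 1, 2 and 3, and 60.2, 49.3 and 41.6 were expected from the share. Subtraction left it at 0, 0.319 and 0.150 CPM. Klk7 had 16, 8 and 17 counts where 20.8, 15.3 and 14.4 were expected, and subtraction left it at 0, 0 and 0.0451 CPM. Serpinb5 differed, with 60, 60 and 104 counts where 4.27, 3.37 and 1.58 were expected, as did Klk1b5, with 65, 97 and 228 counts where 0.448, 0.0432 and 0.925 were. With the share subtracted, 4 of the 14 members that had been lower in the SI tuft group were still called: Klk1, Serpinb5, Serpinb1c and Serpinb2 (FDR 0.00317, 0.0123, 0.0153 and 0.0409). The 10 others were Klk14, Klk7, Klk6, Klk4, Klk1b1, Klk1b11, Klk1b26, Serpinb12, Serpinb7 and Serpinb8. Their log2 differences moved by unequal amounts. Subtraction moved that of Klk7 from -6.68 to -3.04 (FDR 0.238), of Klk4 from -5.27 to -2.53 (FDR 0.433) and of Serpinb12 from -2.90 to -0.85 (FDR 0.640). It moved that of Serpinb8 from -2.78 to -2.39 (FDR 0.0532) and of Klk1b1 from -3.69 to -3.43 (FDR 0.0580). All 36 members called between thymic and SI tuft cells and all 35 between thymic tuft cells and SI epithelium were called in the same direction after subtraction. This outcome was nearly fixed in advance. Subtraction took nothing from SI tuft libraries and at most 1.48% of the counts of a thymic library, and in SI epithelium it lowered members high in thymic libraries.

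**Figure D5:**
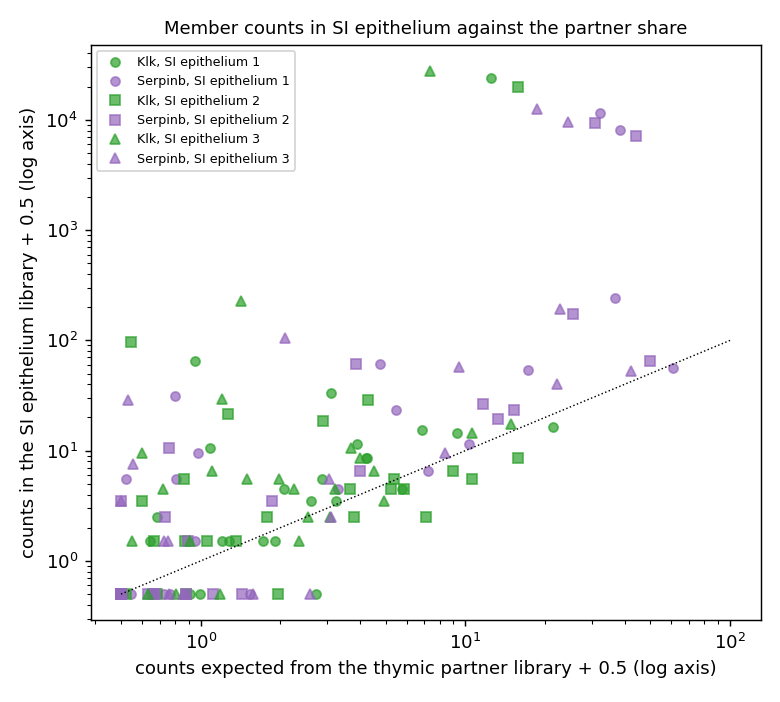
Counts of each member in the 3 SI epithelium libraries against the counts expected from the share of the thymic partner library, both with an offset of 0.5 on log axes; the dotted line marks equality. Klk1, Serpinb1a and Serpinb6a form the group of points at the top, and many low members lie near the line.

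Of 34 partners and substrates of kallikreins, 32 were tested, and 23 were higher and 6 lower in thymic than in SI tuft cells, where 28.5% and 23.1% of all genes were. Spink5, the inhibitor of skin kallikreins, stood at 383 to 522 CPM in thymic libraries and had 1 count over all SI tuft libraries. Dsg1a, a desmoglein that skin kallikreins cut, stood at 32.7 to 44.6 CPM and at 0. Spink1, a trypsin inhibitor, had means of 23.3 ± 5.58 CPM in thymic (SD, n = 4) and 1386 ± 175 CPM in SI tuft cells (n = 3), and Spint2 of 159 ± 21.2 and 559 ± 8.01 CPM. In thymic tuft cells against SI epithelium 18 of these genes were higher and 5 lower (28.6% and 22.3% of all genes). In SI tuft cells against SI epithelium 3 were higher and 12 lower (10.9% and 11.4% of all genes), and with the partner share subtracted 3 and 8. Slpi, Dsg1b, Dsc1 and Bdkrb1 were no longer called. Dsc1, a desmocollin, had 15 counts over the SI epithelium libraries where 16.1 were expected from the share, and Dsg1b had 14 where 12.4 were. Spink5 had 429 where 398 were expected, and Dsg1a 47 where 33.1 were. F2rl1, a receptor that kallikreins can activate, had means of 102 ± 3.22 CPM in SI tuft cells and 372 ± 74.9 CPM in SI epithelium.

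Of 28 proteases or related genes linked to clade B serpins, 21 were tested, and 10 were higher and 6 lower in thymic than in SI tuft cells, again beside 28.5% and 23.1% of all genes. Plau, urokinase, the target of Serpinb2, stood at 28.6 to 48.1 CPM in thymic libraries and had 1 count over all SI tuft libraries. Gzmb, granzyme B, the target of Serpinb9, had means of 2.52 ± 2.92 CPM in thymic (SD, n = 4) and 24.2 ± 8.04 CPM in SI tuft cells (n = 3). Its FDR was 0.0469, and with the partner share subtracted Gzmb was no longer called lower. Gzmb is also on the list of leukocyte markers. Elane and Ctsg, neutrophil proteases that Serpinb1a inhibits, were at 0 in all 10 libraries. Of 31 serpins of other clades, 24 were tested, with 13 higher and 3 lower in thymic than in SI tuft cells (28.5% and 23.1% of all genes). Serpinh1, a collagen chaperone, had means of 38.6 ± 5.92 and 0.0677 ± 0.0619 CPM, and Serpina7, which carries thyroid hormone, stood at 11.5 to 32.0 CPM in thymic libraries and at 0 in SI tuft cells.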

How the data were processed

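Per the submitters' processing notes, the authors aligned reads with STAR to GRCm38 and used DESeq2, with no versions given. The deposited values are raw gene counts, and the counting tool and its handling of strand and shared reads are not given in the sources used here. Per the labels' protocols, poly(A) RNA was amplified with the NuGen Ovation V2 kit and made into Nextera XT libraries, which keep no strand. The members and gene lists were chosen with earlier results of these data known.

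Of 43432 identifiers, 42548 were found in GENCODE M21 and 884 were not. Genes were filtered with filterByExpr (minimum count 10, total 15), scaled by TMM (factors 0.661 to 1.43) and tested with edgeR 4.0.16 in R 4.3.3 (quasi-likelihood, 10 libraries, a mean per group), with Benjamini-Hochberg adjustment over 19281 genes and a threshold of 0.05. Mice are the replicates. Named members were the 5 highest per family and group and the 3 largest called changes per family, comparison and direction with at least 1 CPM; list genes were up to 2 each way with at least 10 CPM. Other members are given by range or mean, and values of Klk4, Klk5, Klk10, Serpinb8 and Serpinb12 in each library, and Dsc1, Dsg1b, Slpi and Bdkrb1, were added after they were seen. Alternatives were other scalings, filters, DESeq2 1.42.0, 2-group fits (also, after seeing the data, on the same genes), a replicate block, subtraction of the partner share and removal of each library. The procedure was also run on simulated data. These had less spread between replicates than the data here, and changes only in genes well above the floor. The run therefore does not bear on calls of members near the floor.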

Additional observations from a re-analysis of the deposited data

Results flagged for a closer look

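Klk1 stood at 203 CPM in thymic tuft library 4, and the other 3 thymic libraries lay between 25.1 and 53.4 CPM. The gap to the next library was 0.841 of the whole range, above the 95% critical value of Dixon's ratio for 4 libraries. It was the 1 value beyond that limit among 23 checked, and chance alone flags about 1 in 20. After subtraction of the partner share, Klk1 stood at 21.7, 51.0 and 33.1 CPM in thymic libraries 1, 2 and 3. Nothing was subtracted from library 4, for which no share was estimated. Its value of 208 CPM after this step differs from 203 CPM by scaling alone and is no check on it.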

How the results depend on the processing

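Between the SI groups, 8 kallikreins and 6 serpins were lower in tuft cells. With only the 2 groups fitted, 3 kallikreins and 8 serpins passed the filter and 2 and 5 were lower; on the genes tested over all 10 libraries, added once the data had been seen, 5 and 4 were. The kallikreins numbered 1 with the partner share subtracted and 5 to 9 with each library left out (5 without SI epithelium 1 or 2, or SI tuft 2, 3 or 4). The serpins numbered 3 with the share subtracted and 3 to 6 with each library left out (3 without SI tuft 2 or 4). Over all genes, lower calls between the SI groups numbered 2199 with all 10 libraries fitted and 3513 with only the 2 groups. They numbered 1821 with the share subtracted and 1426 to 2754 with each library left out, and the genes tested differed between settings. A filter of 5 CPM in 3 libraries tested 22 members, and higher calls numbered 11 kallikreins and 8 serpins in each thymic comparison. With this filter 3775 of all genes were higher in thymic than in SI tuft cells, and 4045 against SI epithelium. DESeq2 called 0 kallikreins lower in thymic tuft cells than in SI epithelium, as it gave no p for Klk1. Leaving out each library gave 18 to 21 kallikreins and 13 to 15 serpins higher in thymic than in SI tuft cells, and 16 to 20 and 12 to 14 against SI epithelium, with 1 to 2 serpins lower (2 without thymic library 2). Over all genes, these higher calls numbered 4505 to 5379 and 4201 to 5515, with 3410 to 4551 lower against SI epithelium. The balance with plain CPM was 0.28, -3.41 and -1.0 in SI epithelium, SI tuft and thymic tuft cells, and without each library it ranged from 1.75 to 1.80, -2.14 to -1.72 and -0.12 to 0.28. Same-numbered libraries were not paired by the labels, and their deviations correlated at -0.0406 to 0.102. The highest value was that of thymic library 2 and SI epithelium library 2, which are also partners in the shared counts. The partners with unlike numbers, thymic 3 with SI epithelium 1 and thymic 1 with SI epithelium 3, correlated at 0.0840 and 0.0463. With the replicate number as a block, 7 kallikreins and 3 serpins were lower in tuft cells between the SI groups, 19 and 13 were higher in thymic than in SI tuft cells, and 20 and 13 against SI epithelium. Over all genes, the fit with the block gave 1565, 4767 and 4889 such calls in the same order. The log2 difference of Serpinb6a between thymic and SI tuft cells, not called in any setting, was 0.22 with DESeq2 size factors and the DESeq2 test, 0.093 with upper quartile scaling, 0.043 with the 5 CPM filter, 0.13 with 2 groups, 0.0061 with the block, 0.019 after subtraction, and -0.18 to 0.10 without each library. Without each library, Klk1b5 between thymic tuft cells and SI epithelium ranged from -0.93 to 0.056, and Serpinb6b between the SI groups from -0.95 to 0.65. Scaling by DESeq2 size factors moved the median log2 difference of all genes between thymic and SI tuft cells from 0.12 to 0.36. The cause of these changes was not tested. Levels under 3 counts in a library could not be told from 0.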

Other observations

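Klk1b7-ps, a pseudogene of the kallikrein cluster that is not a member, had 31 counts in thymic library 2, at 0.584 CPM, and 0 in the other thymic libraries. Serpinb1-ps1 had 28 counts in thymic library 1 and at most 5 in any other library.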
